A study of Mus musculus with 4 samples.

Results

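The genes described here are 10 transcripts known from T cells, Cd3d, Cd3e, Cd3g, Cd2, Lck, Thy1, Cd5, Cd28, Cd8a and Cd4, as they appeared in macrophages sorted from mouse ear skin. They were chosen by name with their levels on the arrays already known, so those levels are given as a description and not as a test. Of the 10, 9 had a row with a single gene symbol among the 22180 genes so named, and Lck, the kinase that starts signalling from the T cell receptor, was not analysed here. For a gene with more than 1 such row, the row of highest average level was taken. The study compared CX3CR1low and CX3CR1bright macrophages of the dermis, with 2 arrays for each subset. All animals were untreated adult C57Bl/6 mice of genotype Cx3cr1+/gfp, so the CX3CR1low cells came from reporter mice too and every cell had 1 functional Cx3cr1 allele. Each array held RNA of cells pooled from 3 to 6 mice, and the replicates of a subset came from 2 independent litters.

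T cells recognise peptide bound to MHC molecules through a receptor whose variable chains cannot signal alone. The CD3 delta, epsilon and gamma chains form the signalling part of that complex, and the co-receptors CD4 and CD8 bind MHC class II and class I and bring the kinase Lck to it. Not all of the listed genes mark T cells alone. In the mouse, Thy1 is also made by fibroblasts, CD8 alpha by some dendritic cells, CD5 by some B cells, and CD4 by some dendritic cells and tissue macrophages. In bulk RNA such as this, fewer cells of a type and less RNA per cell cannot be told apart.

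All values are RMA levels on the log2 scale, where array medians ran from 3.65 to 3.68, and a level near the median can be background. The sort marker checked the labels. Cx3cr1 (transcript cluster 17532268) stood at 3.632 and 3.600 on the CX3CR1low arrays and at 8.42 and 8.44 on the CX3CR1bright arrays. Macrophage identity genes were above the median of every array, 15 of 15 with a row, Csf1r, the receptor for the macrophage growth factor CSF1, among them at 11.57 and 11.66 in CX3CR1low and 11.17 and 11.38 in CX3CR1bright. The CX3CR1bright arrays differed from each other more than the CX3CR1low arrays did. Between the CX3CR1bright arrays 4.7% of the 22180 genes lay at least 1 apart on the log2 scale, against 2.56% between the CX3CR1low arrays.

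Of the 9 measured T cell genes, 6 had their highest level on CX3CR1bright replicate 1, as did 21.1% of all 22180 genes, and 3 of these, Cd3g, Cd3d and Cd5, exceeded each of the other 3 arrays by at least 1 on the log2 scale. The sequences just upstream of those 3 genes are shown because they are the members that stood out together on 1 array. They are the reference sequences of RefSeq on build GRCm38.p6, 5′ to 3′, ending at the base before the gene's annotated span, and capitals mark every match to 1 of 5 short motifs.
Cd3g (chr9:44980432-44980681, minus strand): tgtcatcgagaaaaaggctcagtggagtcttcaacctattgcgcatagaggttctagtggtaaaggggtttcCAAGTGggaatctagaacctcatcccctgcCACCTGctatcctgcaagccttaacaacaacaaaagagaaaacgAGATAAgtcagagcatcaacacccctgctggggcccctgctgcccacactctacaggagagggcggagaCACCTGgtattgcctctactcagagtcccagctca
Cd3d (chr9:44981536-44981768, plus strand): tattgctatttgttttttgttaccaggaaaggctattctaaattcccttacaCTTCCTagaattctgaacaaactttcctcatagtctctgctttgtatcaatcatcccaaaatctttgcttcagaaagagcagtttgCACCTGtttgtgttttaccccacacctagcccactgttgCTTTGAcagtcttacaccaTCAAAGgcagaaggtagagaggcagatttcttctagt
Cd5 (chr19:10739027-10739224, minus strand): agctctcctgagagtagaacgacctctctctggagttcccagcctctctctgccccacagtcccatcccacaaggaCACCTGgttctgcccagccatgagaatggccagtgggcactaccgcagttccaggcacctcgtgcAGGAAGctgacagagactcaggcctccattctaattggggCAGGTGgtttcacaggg
Windows were listed for 5 of the 9 measured genes, and Cd4 was not among them. Cd3g and Cd3d are neighbours on chromosome 9 and are read in opposite directions, so these stretches lie between them. The motifs, searched on both strands, were the E-box CANNTG, the ETS core AGGAAG, the RUNX core TGTGGT, the TCF and LEF core CTTTGA and the GATA core AGATAA, and no matches to different motifs overlapped. E-boxes stood 3 times upstream of Cd3g, 1 time upstream of Cd3d and 2 times upstream of Cd5, where 66%, 63.7% and 58.6% of 27025 promoters held one in a stretch of the same length. CTTTGA was found 2 times upstream of Cd3d, a match that 13.4% of promoters held. AGATAA was found 1 time upstream of Cd3g, as in 10.3% of promoters. AGGAAG was found 1 time upstream of Cd3d and 1 time upstream of Cd5, as in 27.2% and 23.3% of promoters. TGTGGT was in none of these 3 stretches. A match is a run of letters and not a measured binding site.

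The 3 CD3 chains were highest on CX3CR1bright replicate 1 and near background or low on the others. Cd3g (cluster 17526456) stood at 4.83 and 4.64 on CX3CR1low replicates 1 and 2, and at 6.88 and 5.43 on CX3CR1bright replicates 1 and 2. Cd3d (cluster 17516691) stood at 3.01 and 3.49 in CX3CR1low, and at 4.61 and 3.48 in CX3CR1bright. Cd3e (cluster 17526464) stood at 4.28 and 3.80 in CX3CR1low, and at 4.79 and 3.81 in CX3CR1bright. CX3CR1bright replicate 1 was thus the high array for each chain, and CX3CR1bright replicate 2 lay within the CX3CR1low range for Cd3d and Cd3e and above both CX3CR1low arrays for Cd3g. The groups did not overlap for Cd3g and overlapped for Cd3d and Cd3e.

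Over the other 3 arrays, CX3CR1bright replicate 1 held 2.73-fold more Cd3g than the next highest, 2.17-fold more Cd3d and 1.42-fold more Cd3e. On the log2 scale these excesses were 1.45, 1.12 and 0.51, with a mean of 1.03. Among all 22180 genes, 26 had a larger excess on that array than Cd3g and 66 a larger one than Cd3d. An excess of at least 1 on CX3CR1bright replicate 1 was held by 0.455% of all genes and by 3 of the 9 measured T cell genes. This share was 0.171% and 0.216% for the CX3CR1low arrays and 1.18% for CX3CR1bright replicate 2, where 0 of the 9 had one. Because the members were chosen on these values, no more is read from the counts. Cd3d lay below the median of 3 of the 4 arrays, so its excess may be limited by background, and it did not pass the filter on dim genes, which asks for 2 arrays above their own median. The other 8 measured genes passed it.

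**Figure D1:**
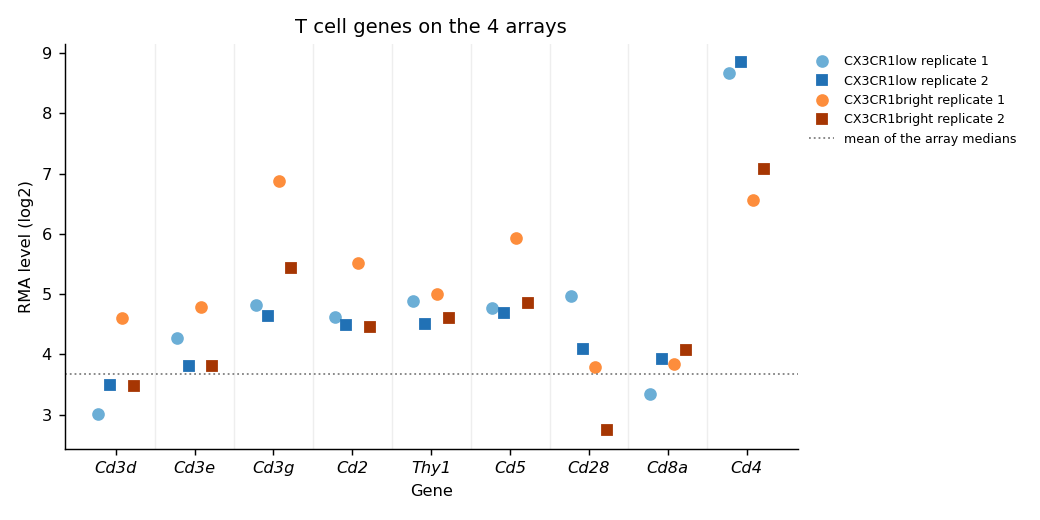
RMA level (log2, vertical axis) of each measured T cell gene (horizontal axis) on the 4 arrays, 1 point per array, with the mean of the array medians dotted. Cd3g, at 6.88, and Cd5, at 5.92, show CX3CR1bright replicate 1 standing above the other 3 points, while Cd4 shows both CX3CR1bright points below both CX3CR1low points.

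The adhesion and modulating receptors of T cells were divided. Cd2 (cluster 17408497), which in the mouse binds CD48 on other blood cells, stood at 4.61 and 4.49 in CX3CR1low and at 5.51 and 4.45 in CX3CR1bright. Cd5 (cluster 17362753), a receptor that dampens antigen receptor signals, stood at 4.77 and 4.69 in CX3CR1low and at 5.92 and 4.85 in CX3CR1bright. Cd2 and Cd5 were therefore high on the same single array as the CD3 chains, by 0.90 and 1.07 on the log2 scale over the next highest array. The subsets did not overlap for Cd5, although CX3CR1bright replicate 2 was only 0.08 above the higher CX3CR1low array, and they overlapped for Cd2. Thy1 (cluster 17516462), a glycolipid-anchored surface protein, stood at 4.88 and 4.504 in CX3CR1low and at 5.002 and 4.60 in CX3CR1bright. For Thy1 each replicate 1 lay above each replicate 2, and the excess on CX3CR1bright replicate 1 was 0.12.

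Cd28 and Cd8a did not have the pattern of the CD3 chains. Cd28 (cluster 17213462), the receptor for the co-stimulatory ligands CD80 and CD86, stood at 4.96 and 4.09 in CX3CR1low and at 3.79 and 2.74 in CX3CR1bright. Both CX3CR1bright arrays lay below both CX3CR1low arrays, and CX3CR1bright replicate 2 lay below its array median. Cd8a (cluster 17459482) stood at 3.34 and 3.92 in CX3CR1low and at 3.85 and 4.07 in CX3CR1bright. These levels overlapped between the subsets and were close to the array medians, so no order among the arrays is read from them.

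Cd4 was lower on both CX3CR1bright arrays, and lowest on the array where the CD3 chains were highest. Cd4 (cluster 17470960) stood at 8.67 and 8.84 in CX3CR1low and at 6.56 and 7.08 in CX3CR1bright, all well above the array medians. The means were 8.76 ± 0.13 (SD, n = 2) and 6.82 ± 0.37 (SD, n = 2), a difference of -1.94 ± 0.25 (SE) on the log2 scale, or 3.83-fold lower in CX3CR1bright cells. The gap between the subsets, 1.59 between the nearest arrays, exceeded the gaps within them, 0.18 and 0.52. With 1 array left out the difference ran from -2.20 to -1.68, and after quantile normalization and cyclic loess it was -1.83 and -1.80. A difference of at least 1.5 in that direction was found for 0.419% of the 22180 genes.

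As a contrast of the subsets, the other members had smaller or less even differences, CX3CR1bright minus CX3CR1low. Cd3g differed by 1.42 ± 0.48 (SE), with group SDs of 0.14 and 1.03 (n = 2). Cd28 differed by -1.26 ± 0.46 (SE). For Cd5 the difference was 0.66 ± 0.38, for Cd2 0.43 ± 0.37, for Cd8a 0.32 ± 0.26, for Cd3e 0.25 ± 0.38 and for Thy1 0.11 ± 0.25 (SE). Cd3d, not tested, differed by 0.79 between means of 3.25 and 4.04. Much of this rested on 1 array. Without CX3CR1bright replicate 1 the differences of Cd3g, Cd3d and Cd5 were 0.70, 0.23 and 0.12, those of Cd3e, Cd2 and Thy1 were -0.24, -0.10 and -0.10, and 4 of 9 were positive in place of 7. Without it Cd28 and Cd4 differed by -1.79 and -1.68 and Cd8a by 0.43.

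In the fit across 13133 genes (limma, Benjamini-Hochberg adjustment, threshold 0.05), 0 of the 8 tested members passed, where 0.137% of all tested genes did. At an unadjusted p under 0.05 (limma) stood 3 of the 8, Cd3g, Cd28 and Cd4, where 18.8% of all tested genes stood. Groups that did not overlap were found for 2 of 9 members with CX3CR1bright higher, Cd3g and Cd5, and for 2 with it lower, Cd28 and Cd4. Among all 22180 genes 18.3% and 25.5% did so. The median difference was 0.29 over the tested members and -0.07 over all tested genes. Since the choice of members used this contrast, nothing is read from these counts. With 2 arrays a group, an exact permutation test over the arrays could not give a p below 0.333.

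**Figure D2:**
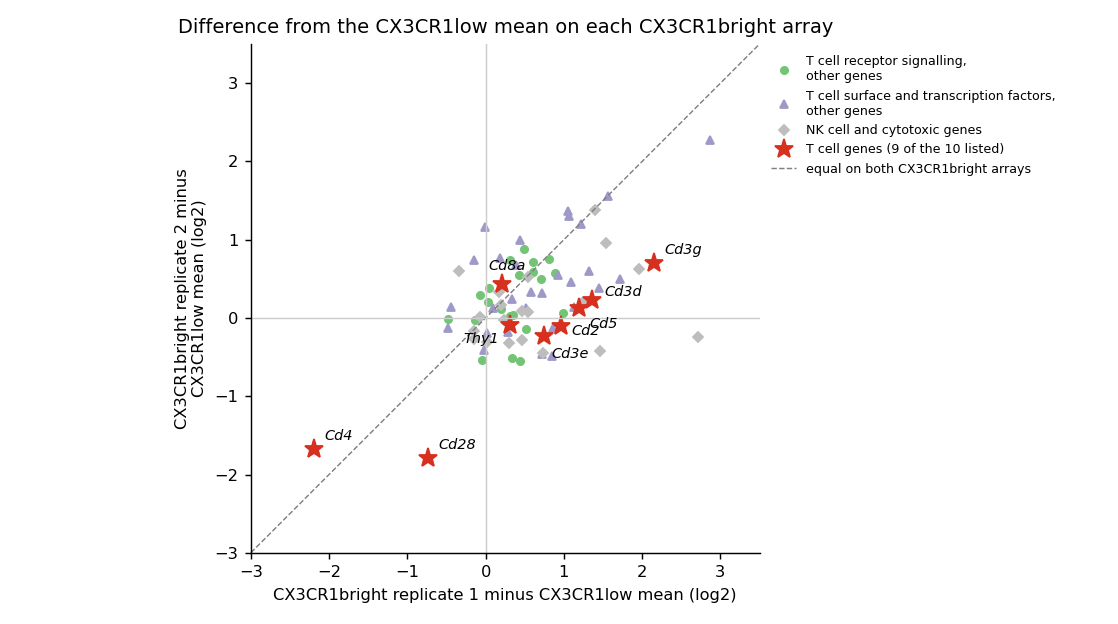
Level on CX3CR1bright replicate 1 (horizontal axis) and replicate 2 (vertical axis), each minus the CX3CR1low mean on the log2 scale, for the measured T cell genes (stars) and for genes of 3 related lists, 1 point per gene. Cd3g lies at 2.15 and 0.70 and Cd5 at 1.19 and 0.12, to the right of the dashed line of equal levels, while Cd4 lies at -2.20 and -1.68, low on both arrays.

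None of the other genes of T cell receptor signalling passed the test. Of the 24 listed, 21 had a row and 17 were tested, and 0 passed in either direction (limma, 4 higher and 0 lower at an unadjusted p under 0.05), with a median difference of 0.21. The 4 with the highest mean level were Lcp2, an adaptor, Ptprc, which encodes CD45, Vav1, a guanine nucleotide exchange factor, and Fyn, a kinase related to Lck, all of them known from myeloid cells as well. Zap70, the kinase that docks on the CD3 chains, stood at 3.78 and 3.82 in CX3CR1low and at 4.31 and 3.66 in CX3CR1bright. Trat1, an adaptor of the receptor complex, stood at 3.73 and 2.80 in CX3CR1low and at 4.25 and 3.33 in CX3CR1bright. Lat, the scaffold that Zap70 phosphorylates, stood at 6.00 and 5.91 in CX3CR1low and at 6.29 and 5.44 in CX3CR1bright. Grap2, an adaptor that joins Lat to Lcp2, stood at 5.16 and 4.74 in CX3CR1low and at 5.84 and 5.52 in CX3CR1bright. These 4 had the largest excesses of their list on CX3CR1bright replicate 1, 0.29 to 0.52, and 11 of the 21 genes were highest there, but 0 exceeded the other 3 arrays by at least 1. Beside this and the later lists, 0.137% of all tested genes passed and 18.8% stood at an unadjusted p under 0.05 (limma, either direction). Among all 22180 genes 21.1% were highest on CX3CR1bright replicate 1.

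None of the other surface receptors and transcription factors of T cells passed the test. Of 30 listed genes 29 had a row and 22 were tested, with 0 called (limma, 7 higher and 0 lower at an unadjusted p under 0.05) and a median difference of 0.63. The difference was positive for 20 of the 22, where 42.5% of all tested genes had a positive one. Il7r, the receptor chain for interleukin-7, stood at 8.32 and 8.19 in CX3CR1low and at 9.81 on each CX3CR1bright array. Cd7, an immunoglobulin-family receptor of lymphocytes, stood at 3.79 and 5.07 in CX3CR1low and at 7.30 and 6.70 in CX3CR1bright. Unlike the CD3 chains, Il7r and Cd7 were high on both CX3CR1bright arrays. Ets1, a transcription factor, at 5.21 and 4.48 in CX3CR1low against 6.07 and 6.04, was so too, while Il2ra, a chain of the interleukin-2 receptor, stood at 5.61 and 5.04 against 5.51 and 6.09.

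The genes of that list with the largest excess on CX3CR1bright replicate 1 included receptors and transcription factors. Cd226, an activating receptor of T and NK cells, stood at 3.52 and 4.18 in CX3CR1low and at 5.57 and 4.34 in CX3CR1bright, an excess of 1.23. Tnfrsf18, which encodes GITR, stood at 4.39 and 4.45 in CX3CR1low and at 5.87 and 4.81 in CX3CR1bright, an excess of 1.06. Ikzf3, the lymphoid factor Aiolos, stood at 2.90 and 2.83 in CX3CR1low and at 3.997 and 3.01 in CX3CR1bright, an excess of 0.99. All 3 were highest on that array by these margins, and Ikzf3 lay below the median of the other arrays. Runx3, a factor known from cytotoxic T cells but not from these alone, stood at 4.70 and 3.92 in CX3CR1low and at 5.64 and 4.92 in CX3CR1bright.

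Gene segments of the T cell receptor itself gave an uneven picture. With a single symbol 8 segments had a row, 4 were tested and 0 passed (limma, 1 higher and 0 lower at an unadjusted p under 0.05), with a median difference of 0.53. Trav9d-3, a variable segment of the alpha chain, stood at 5.57 and 3.06 in CX3CR1low and at 7.47 and 5.62 in CX3CR1bright, an excess of 1.85 on CX3CR1bright replicate 1. Trav12-2 stood at 5.18 and 4.73 in CX3CR1low and at 6.20 and 5.44 in CX3CR1bright. Of the 8 segments, 2 were highest on CX3CR1low replicate 1, 2 on CX3CR1low replicate 2 and 4 on CX3CR1bright replicate 1. The segments named here were taken by their excess on CX3CR1bright replicate 1, so nothing is read from their being highest there. The gamma segments Trgv5 and Trgv6 had excesses of 0.33 and 0.37 there at levels of 3.69 and 3.64, close to the array median. Variable segments resemble each other, and probes for one may also bind transcripts of another.

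Among genes of gamma-delta T cells and innate lymphoid cells, none passed the test. Of 17 listed genes 14 had a row, 10 were tested and 0 passed (limma, 0 higher and 1 lower at an unadjusted p under 0.05), the median difference was -0.26 (0.07 without CX3CR1low replicate 2), and 3 of 14 were highest on CX3CR1bright replicate 1. Il18r1, a receptor chain for interleukin-18, had the largest excess there, 0.59, at 4.56 against 3.44 and 3.85 in CX3CR1low and 3.97 on the other CX3CR1bright array. Il17a, the cytokine gene of type 17 lymphocytes, which was chosen after its values were seen, lay at 2.65 to 3.16 on the 4 arrays, below every array median. Of the other type 17 genes, the cytokine gene Il17f stood at 3.81 and 3.95 in CX3CR1low and at 4.20 and 3.80 in CX3CR1bright, an excess of 0.25 on CX3CR1bright replicate 1. Il23r, a receptor chain for interleukin-23, stood at 2.72 and 3.95 in CX3CR1low and at 4.47 and 3.46 in CX3CR1bright, an excess of 0.52.

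Among NK cell and cytotoxic genes, 13 of 20 were highest on CX3CR1bright replicate 1. In the test 0 of 9 passed (limma, 3 higher and 0 lower at an unadjusted p under 0.05), with a median difference of 0.52, or 0.09 without CX3CR1bright replicate 1. Ifng, the cytokine interferon gamma, stood at 3.59 and 3.17 in CX3CR1low and at 6.09 and 3.14 in CX3CR1bright, an excess of 2.50 on that array. Klrd1, which encodes CD94 of NK and cytotoxic T cells, stood at 2.68 and 3.28 in CX3CR1low and at 4.94 and 3.61 in CX3CR1bright, and Gzmb, the protease granzyme B, at 4.18 and 3.86 against 5.48 and 3.601. Ifng, Klrd1 and Gzmb, and Nkg7 below, were named for the largest excesses of this list on CX3CR1bright replicate 1. Their being highest there follows from that choice. On the other 3 arrays Ifng and Klrd1 lay below the array median, so that their excesses of 2.50 and 1.33 are over levels near background, whereas the excess of Gzmb, 1.30, is over a CX3CR1low array on which it lay above the median. The chemokine gene Ccl5, which macrophages also make, stood at 9.19 and 7.90 in CX3CR1low and at 9.94 and 9.92 in CX3CR1bright. Of the genes known from NK cells, Tbx21, the transcription factor T-bet, stood at 4.10 and 4.39 in CX3CR1low and at 4.78 and 4.77 in CX3CR1bright. A further 3 were chosen after their values were seen. Klrk1, which encodes the receptor NKG2D, stood at 3.86 and 2.64 in CX3CR1low and at 4.78 and 4.20 in CX3CR1bright, while Ncr1, an activating receptor, lay at 3.38 to 3.70 and Eomes, a transcription factor, at 2.79 to 3.19. Nkg7, a granule protein of cytotoxic lymphocytes, stood at 4.28 and 3.47 in CX3CR1low and at 5.12 and 4.07 in CX3CR1bright.

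Among B cell genes, 4 of the 14 with a row were highest on CX3CR1bright replicate 1. For this list the median difference was -0.16 over 7 tested (-0.29 and 0.01 without CX3CR1low replicates 1 and 2, and -0.37 and 0.04 without CX3CR1bright replicates 1 and 2), and 0 passed (limma, 0 higher and 1 lower at an unadjusted p under 0.05). Ms4a1, which encodes CD20, lay at 2.49 to 3.17, below every array median, with an excess of 0.49 on CX3CR1bright replicate 1. Cd79a and Cd79b encode the signalling chains of the B cell receptor. Cd79a lay at 2.56 to 3.24, and Cd79b stood at 5.01 and 5.08 in CX3CR1low and at 5.50 and 3.44 in CX3CR1bright, an excess of 0.42. The genes with the highest mean level were not low, and which cells their RNA came from was not tested. Blnk lay at 10.14 to 10.23, and Ighm stood at 9.95 and 9.73 in CX3CR1low and at 9.78 and 9.11 in CX3CR1bright. Cd22, the 1 gene lower at an unadjusted p under 0.05 (limma), stood at 5.55 and 5.40 in CX3CR1low and at 4.45 and 4.55 in CX3CR1bright.

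The partners that T cell receptors bind on presenting cells were above the array median throughout, 13 of 13 measured genes on every array. Of 15 listed 13 were tested, with 0 called (limma, 4 higher and 0 lower at an unadjusted p under 0.05) and a median difference of 0.34. The MHC class II genes H2-Aa, H2-Ab1 and H2-Eb1, ligands of CD4, differed by 0.34, 0.22 and 0.42, and B2m, the light chain of MHC class I, by -0.13. Cd274, which encodes the inhibitory ligand PD-L1, stood at 7.84 and 7.65 in CX3CR1low and at 8.18 and 7.19 in CX3CR1bright.

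**Figure D3:**
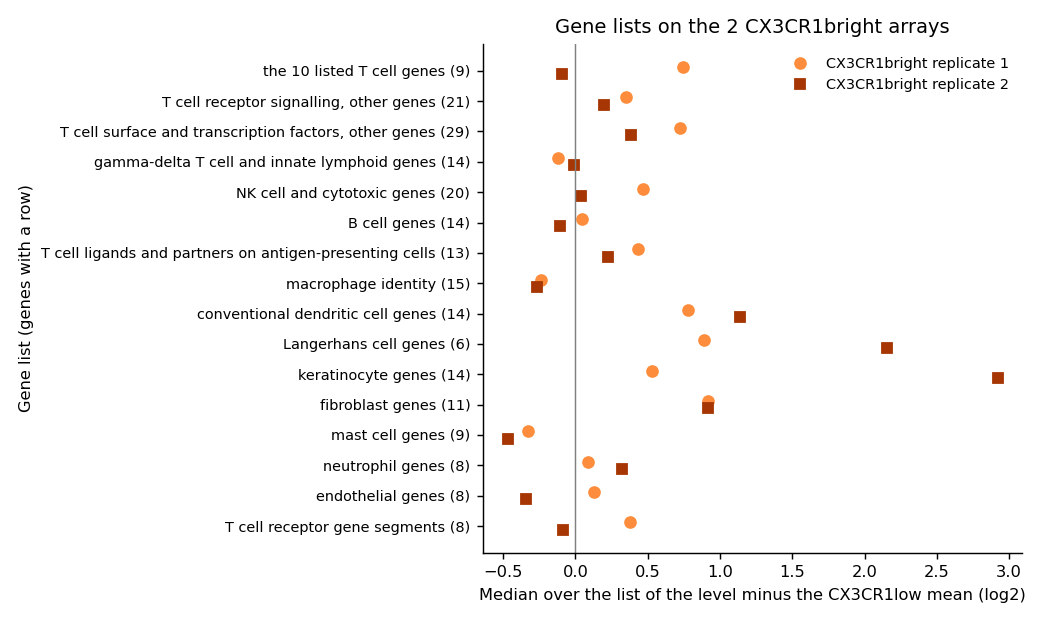
Median over each gene list of the level on a CX3CR1bright array minus the CX3CR1low mean (log2, horizontal axis), for CX3CR1bright replicates 1 (circles) and 2 (squares), with the number of genes with a row in brackets. The 9 measured T cell genes lie at 0.74 on replicate 1 and -0.10 on replicate 2, while keratinocyte genes lie at 0.53 and 2.92.

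Levels of marker genes of further cell types also differed between the arrays, and their part in the T cell gene levels was not tested. For the 8 measured members other than Cd4, 6 were highest on CX3CR1bright replicate 1, and the summed linear signal was 153 to 179 in CX3CR1low and 336 and 167 on CX3CR1bright replicates 1 and 2. For keratinocyte genes 13 of 14 were highest on CX3CR1bright replicate 2 and 1 on replicate 1, with a summed signal of 1016 to 1461 in CX3CR1low and of 1927 and 7066 on CX3CR1bright replicates 1 and 2. The keratinocyte sum was above both CX3CR1low arrays on each CX3CR1bright array. Nothing about the source of the CD3 signal is read from this order of the arrays. Fibroblast genes had similar levels on the CX3CR1bright arrays, with sums of 1469 to 1904 in CX3CR1low and 2945 to 3226 in CX3CR1bright. Of the 11, 10 lay higher without overlap, where 18.3% of all 22180 genes did. Conventional dendritic cell genes had sums of 1577 to 1921 in CX3CR1low and 1551 to 1803 in CX3CR1bright, and a median difference of 1.06. Of the 14, 7 were highest on CX3CR1bright replicate 1 and 5 on replicate 2. Without overlap 10 lay higher and 2 lower, where 18.3% and 25.5% of all 22180 genes did. Cd209a, highest of the list by mean level, weighs most in the sums. It stood at 9.78 and 10.20 in CX3CR1low and at 8.79 and 8.59 in CX3CR1bright. Langerhans cell genes had sums of 805 to 821 in CX3CR1low and 1521 and 2258 on CX3CR1bright replicates 1 and 2, with 1 of 6 highest on replicate 1 and 4 on replicate 2. In these 4 lists 0 genes passed (limma, 3, 9, 9 and 4 higher and 0, 0, 1 and 0 lower at an unadjusted p under 0.05, in the order given). Keratinocyte genes had a median difference of 1.83, or 3.02 and 0.54 without CX3CR1bright replicates 1 and 2, and Langerhans cell genes one of 1.76, or 0.89 without CX3CR1bright replicate 2. Mast cell, neutrophil and endothelial lists had median differences of -0.28, -0.38 and -0.24, with 0 called (limma, 0 higher in each and 2, 1 and 1 lower at an unadjusted p under 0.05) and with 0 of 9, 3 of 8 and 4 of 8 genes highest on CX3CR1bright replicate 1, in the order given. Of the neutrophil genes, S100a8 and S100a9 encode the subunits of calprotectin. S100a8 lay at 2.77 to 3.61, and S100a9 stood at 2.84 and 3.17 in CX3CR1low and at 4.41 and 3.65 in CX3CR1bright. Csf3r, the receptor for the growth factor G-CSF, stood at 8.67 and 8.74 in CX3CR1low and at 8.14 and 7.18 in CX3CR1bright. The median of the endothelial list was -0.71 and 0.12 without CX3CR1bright replicates 1 and 2, and that of the neutrophil list was 0.20 without a filter on low levels.

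Macrophage identity genes had a median difference of -0.33 over 15 tested, with sums of 28238 to 29355 in CX3CR1low and 24077 to 25306 in CX3CR1bright. That median was -0.13 without CX3CR1low replicate 2, -0.20 after quantile normalization and -0.19 after cyclic loess. Of the 15, 8 lay lower without overlap and 2 higher, where 25.5% and 18.3% of all 22180 genes did. In the test 0 passed (limma, 0 higher and 3 lower at an unadjusted p under 0.05). Cd68, a lysosomal membrane protein, differed by -0.64, C1qb, a complement chain, by -0.17, and Cd14, the lipopolysaccharide co-receptor, by 0.30. The difference of Cd4, at -1.94, lay outside this range, and outside the -1.10 of Cd163, the lowest of the list, a gene named after its value was seen. Whether the difference between Cd4 and the list exceeds chance was not tested.

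The genes nearest to the CD3 chains in profile were found among the 13133 tested genes by the distance between centred levels over the 4 arrays. The 10 nearest, at distances of 0.142 to 0.276, were Calm4, Tnfrsf18, Olfr525, Cd5, Wfikkn1, Lax1, Mfsd2a, Igfbp7, Retn and Itgal. With 4 arrays such likeness is easily met and is a description alone. Known from lymphocytes among them were Tnfrsf18, Lax1 and Cd5, which is itself a member chosen with its levels known. Lax1, an adaptor of lymphocytes, stood at 3.57 and 3.49 in CX3CR1low against 4.76 and 3.82 in CX3CR1bright. Itgal, the alpha chain of the integrin LFA-1 of leukocytes and not of lymphocytes alone, stood at 5.63 and 5.49 against 6.82 and 6.02. The nearest gene of all, Calm4, a calmodulin-like protein known from epidermis, stood at 6.06 and 5.91 in CX3CR1low against 7.41 and 6.07 in CX3CR1bright.

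Genes with the largest excess on CX3CR1bright replicate 1 were ranked among those that entered the test, without predicted genes, Rik genes and small RNAs. The filter of the test leaves out Ifng, which was above the median on 1 array and whose excess of 2.50 was surpassed by 1 of all 22180 genes. Elovl6, Elovl4 and Elovl3, elongases of fatty acids, led with Panx3, a membrane channel protein, at excesses of 2.37, 2.05, 1.93 and 2.07. Scd1, a fatty acid desaturase, followed at 1.82 and Mgll, a lipase of monoacylglycerols, at 1.74, with Insl6, an insulin-like peptide, at 1.88. Of the leading 10, those known from lymphocytes were Trav9d-3 and the NK receptor gene Klrb1b. Klrb1b stood at 4.62 and 4.52 in CX3CR1low against 7.68 and 5.90 in CX3CR1bright. Ccl17, a ligand of the receptor CCR4 on T cells, belonged to the list of conventional dendritic cell genes. It stood at 4.87 and 3.83 in CX3CR1low and was higher on both CX3CR1bright arrays, at 7.63 and 5.91. All genes of this ranking are highest on CX3CR1bright replicate 1 by the way they were chosen. Nothing is read from their sharing that array with the CD3 chains, and whether they are connected was not tested.

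The genes nearest to Cd4 in profile were found by the same distance. The 6 nearest, at distances of 0.121 to 0.215, were Kcnq1, a potassium channel, Adgrg1, an adhesion receptor, Sgsh, a lysosomal sulfatase of heparan sulfate, Trnp1, a nuclear protein, Sema4b, a semaphorin, and Gprc5c, an orphan receptor. Kcnq1 stood at 6.33 on each CX3CR1low array and at 4.14 and 4.67 in CX3CR1bright. Adgrg1 stood at 8.76 and 8.88 in CX3CR1low and at 6.82 and 7.26 in CX3CR1bright. In all 6, as in Cd4, both CX3CR1bright arrays lay below both CX3CR1low arrays, with differences of -1.92 to -1.74. These genes were chosen for their nearness to Cd4, so this order and the size of the differences follow from the choice. Nothing more is read from them.

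**Figure D4:**
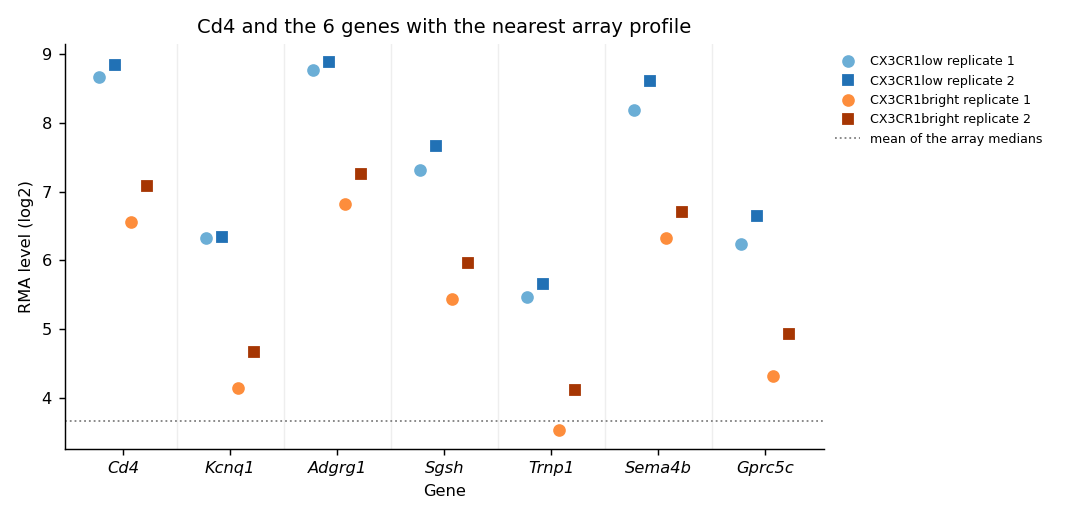
RMA level (log2, vertical axis) of Cd4 and the 6 tested genes nearest to it in profile (horizontal axis) on the 4 arrays, 1 point per array, with the mean of the array medians dotted. Cd4 stands at 8.67 and 8.84 in CX3CR1low and at 6.56 and 7.08 in CX3CR1bright, and for each gene CX3CR1bright replicate 1 is the lowest point.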

How the data were processed

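RNA of 4 sorted pools was measured on Affymetrix whole-transcript arrays after WT Pico amplification, per the labels' protocols. The deposited values are log2 levels that the authors computed, per the submitters' processing notes, with the RMA method of Affymetrix Expression Console 1.4. For the genome build, the sources used here give no name. Of 34390 transcript clusters 23521 carried 1 gene symbol in the platform annotation, 1814 several and 9055 none. Single-symbol clusters were named and reduced to 22180 genes by the highest mean.

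Testing was limited to genes above the array's own median on 2 or more of the 4 arrays (13133 genes). CX3CR1bright was compared with CX3CR1low by limma 3.58.1 in R 4.3.3 (two-sided, Benjamini-Hochberg, threshold 0.05), without a replicate block. The limma fit was checked on simulated data with differences larger than any member's and no single array standing out. The excess, the list medians and the profile distances were not checked in this way. The number of arrays limits precision, and p-values measure spread between pools of mice. Excess is an array's log2 level minus the highest of the other 3. Members and 14 further lists were chosen with earlier results of these data known. Named were all members, from each list up to 4 genes by mean level and 4 by excess on CX3CR1bright replicate 1, and the genes nearest in profile. Alternatives covered filters, scaling, variance models, the block and leaving out arrays.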

Additional observations from a re-analysis of the deposited data

How the results depend on the processing

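The excess of the CD3 genes on CX3CR1bright replicate 1, 1.03 as a mean, was 1.02 to 1.04 under other scalings and 1.03 to 1.23 with 1 other array left out. The excess is over the highest of the other arrays. Leaving out another array can only keep or raise it, so the latter range is no check of it. The median difference of the 9 measured members, 0.32, ran from -0.10 (without CX3CR1bright replicate 1) to 0.74 (without CX3CR1bright replicate 2). That of other receptor signalling genes, 0.21, ran from 0.11 to 0.42 and that of surface and transcription factor genes, 0.63, from 0.48 to 0.85 with 1 array left out. The cause was not tested. Of the members 0 passed (limma), or 1, Cd4, with all 4 arrays required above the median (adjusted p = 0.0448) and with an intensity trend (adjusted p = 0.0201). Its adjusted p was 0.0706 as reported and, over the alternatives, 0.0201 to 0.429. The count of all genes past the threshold, 18, was 1 without a filter, 88 with all 4 arrays above the median, 1 after quantile normalization, 33 after cyclic loess, 308 with an intensity trend, 1 with a robust prior, and 0 to 154 with 1 array left out. With the replicate block it was 0 (limma, 2637 at an unadjusted p under 0.05), and 0 members passed, with 3 at an unadjusted p under 0.05. The labels do not say that a replicate number marks a shared litter, and the same-numbered deviations correlated at 0.155 across genes. The depth of an array is its signal over background, which limits Cd3d, Cd8a and Cd28 most.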
